A study of Mus musculus with 2 samples.

Results

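Mitotic and kinetochore genes encode the proteins that build the spindle, attach chromosomes to it, hold division until attachment is complete and then separate the daughter cells. Here 33 such genes were followed in cells of mouse distal small intestinal organoids. They were taken by name from a list: 6 genes of the cyclin, kinase and anaphase-promoting machinery, 6 of the mitotic kinases and chromosomal passengers, 3 spindle checkpoint kinases, 3 centromere and kinetochore proteins, 5 kinesin motors, 7 spindle and cytokinesis proteins and 3 chromosome structure proteins. All 33 were among the 22253 genes of the deposited matrix.

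Organoids are cultures of intestinal epithelium that keep dividing and form differentiated gut cells. The series compared 2 control cultures (hashtags A0308 and A0309) with 3 cultures mutant for Etv1 (A0310, A0311 and A0312), a gene for a transcription factor of the ETS family. The labels give 1 genotype for the whole pool, the reporters Neurog3-RFP and Gcg-Venus, carried by controls and mutants alike. The first reports Neurog3, which endocrine precursors express, and the second the proglucagon gene. The kind of Etv1 mutation, the sort gate, the number of clones or mice behind a culture and the age of the mice are not stated in the labels. Cells were sorted, tagged by culture, pooled and sequenced in 1 RNA and 1 hashtag library.

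In the crypt of the small intestine, stem cells marked by Lgr5 and Olfm4 divide and give rise to faster dividing progenitors, and absorptive and secretory cells leave the cell cycle as they mature. Transcripts of mitotic genes build up late in the cell cycle, in G2, and are cleared after division. Cyclin B with the kinase Cdk1 drives entry into mitosis, and the anaphase-promoting complex, activated by Cdc20 and supplied with ubiquitin by Ube2c, ends it. Many of these genes share 2 promoter elements: the cell cycle genes homology region (CHR), read by the MuvB complexes, and the CCAAT box, read by the factor NF-Y.

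The promoters of some members with matches upstream of the start are shown first, because many members share these elements. The genes and the stretches were picked to show matches, and other members, such as Ube2c and Cdk1, also had them upstream. Of the 33 members, 30 had an entry in the promoter table from RefSeq (build GRCm38.p6, 250 bases before to 50 after the start), and Ect2 and Prc1 had 2 starts each, which made 32 promoters. The letters TTTGAA (the CHR) and CCAAT were searched on both strands, so that a match on the other strand reads TTCAAA or ATTGG. Capitals mark these matches, and the stretches run 5′ to 3′ on the strand of the gene, upstream of the RefSeq start and outside every exon of the GENCODE vM21 annotation.
Ccnb2 at chr9:70421555-70421649, minus strand: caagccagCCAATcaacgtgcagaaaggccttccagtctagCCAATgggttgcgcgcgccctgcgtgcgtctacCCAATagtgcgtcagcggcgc
Cdc20 at chr4:118437353-118437453, minus strand: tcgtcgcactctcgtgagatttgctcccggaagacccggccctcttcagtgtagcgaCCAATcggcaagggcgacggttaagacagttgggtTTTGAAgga
Ckap2l at chr2:129297213-129297342, minus strand: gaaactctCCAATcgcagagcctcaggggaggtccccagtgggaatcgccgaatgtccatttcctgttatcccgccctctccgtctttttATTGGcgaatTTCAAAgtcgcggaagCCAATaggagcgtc
Kif11 at chr19:37376272-37376381, plus strand: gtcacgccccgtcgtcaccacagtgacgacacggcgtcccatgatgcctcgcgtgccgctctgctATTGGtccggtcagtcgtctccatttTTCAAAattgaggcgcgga
Mki67 at chr7:135716469-135716574, minus strand: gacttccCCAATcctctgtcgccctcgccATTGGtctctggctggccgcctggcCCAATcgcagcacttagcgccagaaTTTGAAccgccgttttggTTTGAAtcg
Top2a at chr11:99024190-99024299, minus strand: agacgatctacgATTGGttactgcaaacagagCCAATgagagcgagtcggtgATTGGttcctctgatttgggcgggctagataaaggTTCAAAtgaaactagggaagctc
Hmgb2 at chr8:57511733-57511842, plus strand: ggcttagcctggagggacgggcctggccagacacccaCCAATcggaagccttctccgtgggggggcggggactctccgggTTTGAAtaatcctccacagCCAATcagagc

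Ccnb2 (cyclin B2) carried 3 CCAAT boxes in this stretch, and its nearest TTTGAA lay just past the start and is not shown. Kif11, a motor that pushes spindle poles apart, showed 1 box followed by 1 CHR. In Mki67, which encodes the protein Ki-67 that coats mitotic chromosomes, 3 boxes were followed by 2 CHR matches. TTTGAA was present in 27 of the 32 member promoters (84.4%), against 17.9% of all 32851 promoters of the same length. Within 60 bases before to 30 after the start it was in 68.8% of member promoters and 4.89% of all. CCAAT was in 28 of 32 (87.5%), against 37.4% of all, and at 2 or more places in 65.6%, against 11.7% of all.

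The variant TTTAAA, a palindrome, was in 9 of 32 member promoters (28.1%) and in 13.2% of all. Ccnb1 (cyclin B1) had it without TTTGAA, and the window of Nusap1, a microtubule-bundling protein, held none of the 3 motifs. Among promoters of a list of other mitotic genes, TTTGAA was in 50.6%, and among those of genes of DNA replication and S phase it was in 9.3%. CCAAT was in 64.9% and 60.5% of the same lists. A match is a run of letters, and factor binding was not measured.

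**Figure D1:**
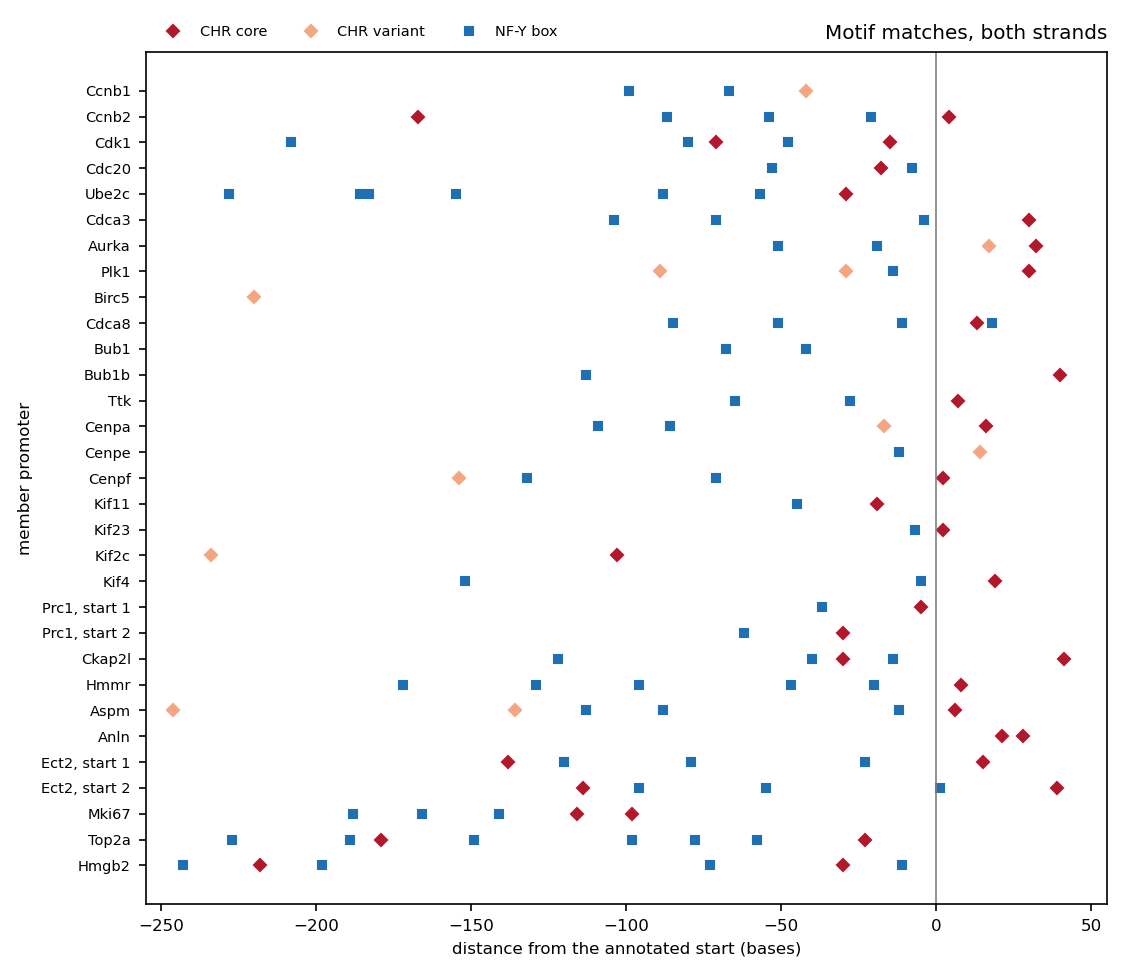
Positions of motif matches in member promoters, as distance in bases from the annotated start (x axis), 1 promoter per line (y axis), matches on both strands. Red diamonds are TTTGAA, pale diamonds TTTAAA and blue squares CCAAT. Matches to TTTGAA gather close to the start, and CCAAT boxes lie mostly upstream of them. Promoters without any match are not drawn.

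Of 3409 barcodes shared by both libraries, 2725 passed the cell filter and 1432 carried a single hashtag: 323 and 349 in the controls, and 282, 281 and 197 in the mutants. Total counts of unique molecular identifiers (UMIs, 1 per captured transcript) ran from 4193197 to 7254380 per culture, and mutant 3 was the smallest on both measures. Etv1 itself had 45 and 44 UMIs in the controls and 20, 20 and 13 in the mutants, or 6.203 and 6.29 against 3.21, 3.06 and 3.10 CPM (counts scaled to 1000000 UMIs per culture). Every mutant lay below both controls, and transcripts were still detected. Markers of non-epithelial cells were low: the summed level of 10 immune markers ran from 6.71 to 13.1 CPM with 4 of them at 0, and 7 of 8 mesenchymal markers were at 0.

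Cells were counted as rich in members when at least 10 of the 33 genes had a UMI after each cell was thinned to 5000 UMIs. Of the 1243 cells deep enough, 262 (21.1%) met this, and the 189 shallower cells were left out. The threshold is a point on a continuous range: 37 cells held 9 members and 29 held 10, and the median cell held 3. The richest cell held 26. These 262 cells contained 25.2% of the UMIs of the deep cells.

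They carried far larger shares of the members' own transcripts. That share ran from 57.6% for Hmgb2, a chromatin protein that is also present outside mitosis, to 89.3% for Nusap1. It was 88.2% for Aspm, which organises spindle poles, and 63.2% for Ccnb2. These shares follow in part from how the cells were chosen, since each gene counts towards the 10. Hmgb2 had a UMI in 65.2% of cells that were not rich in members, and Ube2c in 20.2%. For Aspm this was 0.510% and for Kif2c, a motor that takes apart microtubules at kinetochores, 0.714%.

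Classes of cells came from clustering without 316 cell cycle and histone genes, so that dividing cells were grouped by their other genes. At the lower clustering resolution, the stem-like class (400 cells) was led by Olfm4, and 8 of 10 stem markers passed the naming rule. Olfm4 stood at 3389 CPM in it and 596 in other cells, and Lgr5, the receptor that marks crypt stem cells, at 204 and 68.2. In stem-like cells 96 of 398 deep cells were rich in members (24.1%). By culture the share was 18.9% and 26.4% in the controls and 35.8%, 25.6% and 11.3% in the mutants. Control values lay inside the range of the mutants.

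In enterocyte-like cells, the absorptive class led by Apoa1, 8 of 219 deep cells were rich in members (3.65%, exact binomial 95% interval 1.59 to 7.07). Goblet/Paneth-like cells, the mucus and antimicrobial secreting class, gave 5 of 84 (5.95%). Enteroendocrine-like cells, the hormone class led by Chga, gave 2 of 54 (3.70%). Both had wide intervals, 1.96 to 13.3 and 0.452 to 12.8. Without thinning, the shares were 43.8% of stem-like and 9.58% of enterocyte-like cells, at median depths of 22430 and 27630 UMIs. The intervals cover counting error only.

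Of the 4 named classes in this clustering, the stem-like class also had the highest summed level of the 33 genes, given as UMIs per 10000 UMIs. Stem-like cells had 29.1 ± 7.44 (SD, n = 5 cultures), with single cultures between 19.9 and 37.8. Enterocyte-like cells had 4.91 ± 2.55, enteroendocrine-like cells 7.85 ± 6.63 and goblet/Paneth-like cells 13.2 ± 4.77. All 5 cultures were lower in enterocyte-like than in stem-like cells. The 3 differentiated classes overlapped one another, and the lowest of them differed between measures: by the mean share of member-rich cells over cultures it was the enteroendocrine-like class, at 2.35% against 3.09% in enterocyte-like cells. The 2 member-rich enteroendocrine-like cells were of control 1, among 17 deep cells. That culture also had the highest level in this class, 19.0, against 2.89 to 8.46 in the other cultures.

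Clusters that matched no list of cell type markers also held many member-rich cells. The lists of S-phase and mitotic markers were not used for naming in this clustering. A cluster led by Psph, Mthfd2 and Psat1, enzymes of serine and folate metabolism (216 cells), had 29.8% ± 15.6 of its deep cells rich in members, as the mean over cultures. In a cluster led by Rbp7, Ccnb2 and Kcne3 (166 cells) this was 24.3% ± 10.5. Ccnb2 and Cenpa, among the 10 leading genes of that cluster, are themselves members. By the same mean the stem-like class stood at 23.6% ± 9.14. These 3 values differed by less than their spread, and mutant 2 had only 7 cells in the first of these clusters. Of all 262 member-rich cells, 36.6% lay in the stem-like class, 23.7% in the Psph cluster and 16.0% in the Rbp7 cluster.

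**Figure D2:**
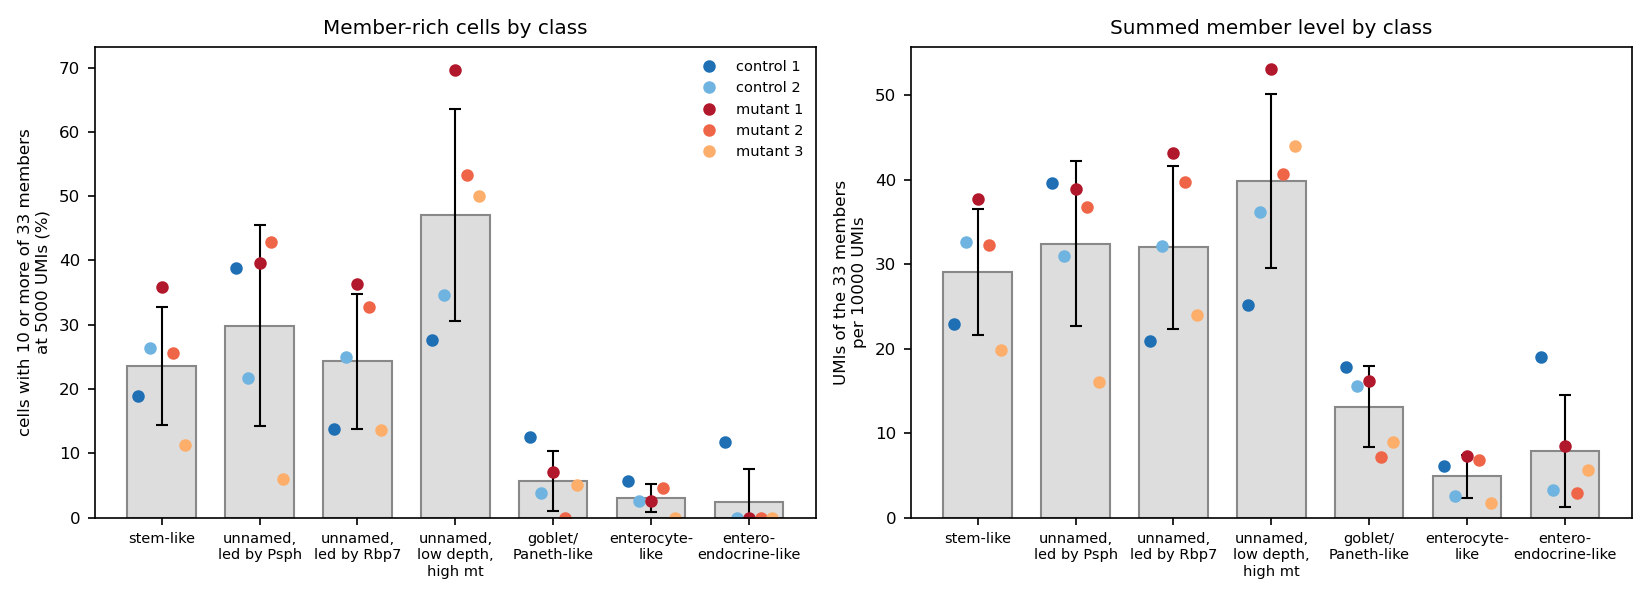
Left, percent of deep cells with at least 10 of 33 members at 5000 UMIs. Right, summed member UMIs per 10000 UMIs. Bars are means of 5 cultures, error bars SD and points single cultures. Stem-like cells (mean 23.6%) and 3 unnamed clusters sit above the goblet/Paneth-like, enterocyte-like and enteroendocrine-like classes (2.35% to 5.70%).

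The share among stem-like cells depended on how stem cells were set apart. At the higher resolution, the stem-like class shrank to 160 cells, of which 9.43% were rich in members, and 218 of the 400 cells moved to a cluster led by histone genes. When cell cycle genes were allowed into the clustering, dividing cells formed a cycling-like class of their own (307 cells, 66.1% rich in members) and the stem-like class kept 1.14%. Its summed member level was then 7.55 UMIs per 10000. As the mean over cultures this level was 7.79 ± 1.41 (SD). It was 10.6 ± 3.44 in goblet/Paneth-like, 8.42 ± 7.74 in enteroendocrine-like and 3.69 ± 1.87 in enterocyte-like cells. By the same mean, the stem-like share (1.245%) was below those of the same classes, at 3.44%, 2.67% and 1.75%. The stem-like class was thus no longer the highest of these, though its gaps to goblet/Paneth-like and enteroendocrine-like cells were smaller than their spread. Enterocyte-like cells stayed between 1.86% and 5.43% under both changes.

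All 33 members had a higher CPM in stem-like than in enterocyte-like cells in each of the 5 cultures. The ratio of means ran from 2.81 for Kif23 to 17.1 for Aspm, with a median of 6.63. For 32 members the lowest stem-like culture was above the highest enterocyte-like culture, and Cdc20 was the exception. Cdk1, the kinase at the centre of mitotic entry, stood at 80.1 and 107 CPM in stem-like cells of the controls and at 122, 125 and 73.9 in the mutants. In enterocyte-like cells it averaged 13.4 ± 8.73 (SD, n = 5). Every stem-like value was above that level. Ccnb1 averaged 36.1 ± 11.01 in stem-like and 6.22 ± 4.33 in enterocyte-like cells. Cdc20, the activator of the anaphase-promoting complex, averaged 62.4 ± 23.0 and 14.6 ± 15.5. For Cdc20 the spread among enterocyte-like cultures was as large as the mean.

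Among the kinases and passengers, Aurkb, the catalytic subunit of the chromosomal passenger complex, averaged 42.2 ± 8.63 CPM in stem-like and 4.74 ± 3.57 in enterocyte-like cells. Its partner Birc5 (survivin) averaged 143 ± 41.9 and 35.5 ± 24.6. Aurka, which acts at spindle poles, averaged 34.1 ± 11.4 and 5.91 ± 3.90. In enteroendocrine-like cells, at a median depth of 9591 UMIs, it had a UMI in 6.25% of cells without thinning. The checkpoint kinases Bub1, Bub1b and Ttk averaged 25.5, 18.0 and 13.2 CPM in stem-like cells and 4.03, 2.00 and 1.94 in enterocyte-like cells.

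For the kinetochore, Cenpa, the histone H3 variant that marks centromeres, averaged 74.8 ± 24.3 CPM in stem-like and 11.7 ± 10.1 in enterocyte-like cells. Cenpf, a protein of the outer kinetochore, averaged 115 ± 38.1 and 12.5 ± 9.09. Cenpe, the kinetochore motor that moves chromosomes to the spindle equator, averaged 47.6 ± 10.5 and 7.92 ± 4.28. A Cenpf UMI was found in 24.9% of thinned stem-like cells (46.8% unthinned) and in 3.65% of thinned enterocyte-like cells (11.3% unthinned). The enterocyte-like class itself held the 8 member-rich cells given above, so its share is not that of cells without division, and free RNA was not estimated.

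Kinesins and cytokinesis genes had few UMIs in differentiated cells. Kif11 averaged 34.96 ± 9.16 CPM in stem-like and 5.27 ± 2.11 in enterocyte-like cells. Kif2c had 9 UMIs in all enterocyte-like cells together, and Aspm had 8. Prc1, which bundles midzone microtubules, averaged 71.6 ± 26.4 and 11.5 ± 4.81. Anln and Ect2, which position the contractile ring, averaged 17.4 and 30.4 in stem-like and 1.91 and 3.47 in enterocyte-like cells. Kif23, a motor of the midzone, averaged 25.03 ± 7.21 and 8.91 ± 2.85.

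In the chromosome group, Top2a, the topoisomerase that untangles sister chromatids, averaged 180 ± 41.7 CPM in stem-like and 20.6 ± 10.1 in enterocyte-like cells. Mki67 averaged 156 ± 50.6 and 18.4 ± 13.3. Hmgb2 averaged 852 ± 162 and 156 ± 66.5, and had a UMI in 77.4% and 37.4% of thinned cells. It was the member most often seen in differentiated cells, with a UMI in 64.8% of thinned enteroendocrine-like cells. No test was made between classes, since classes were built from the same cells.

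**Figure D3:**
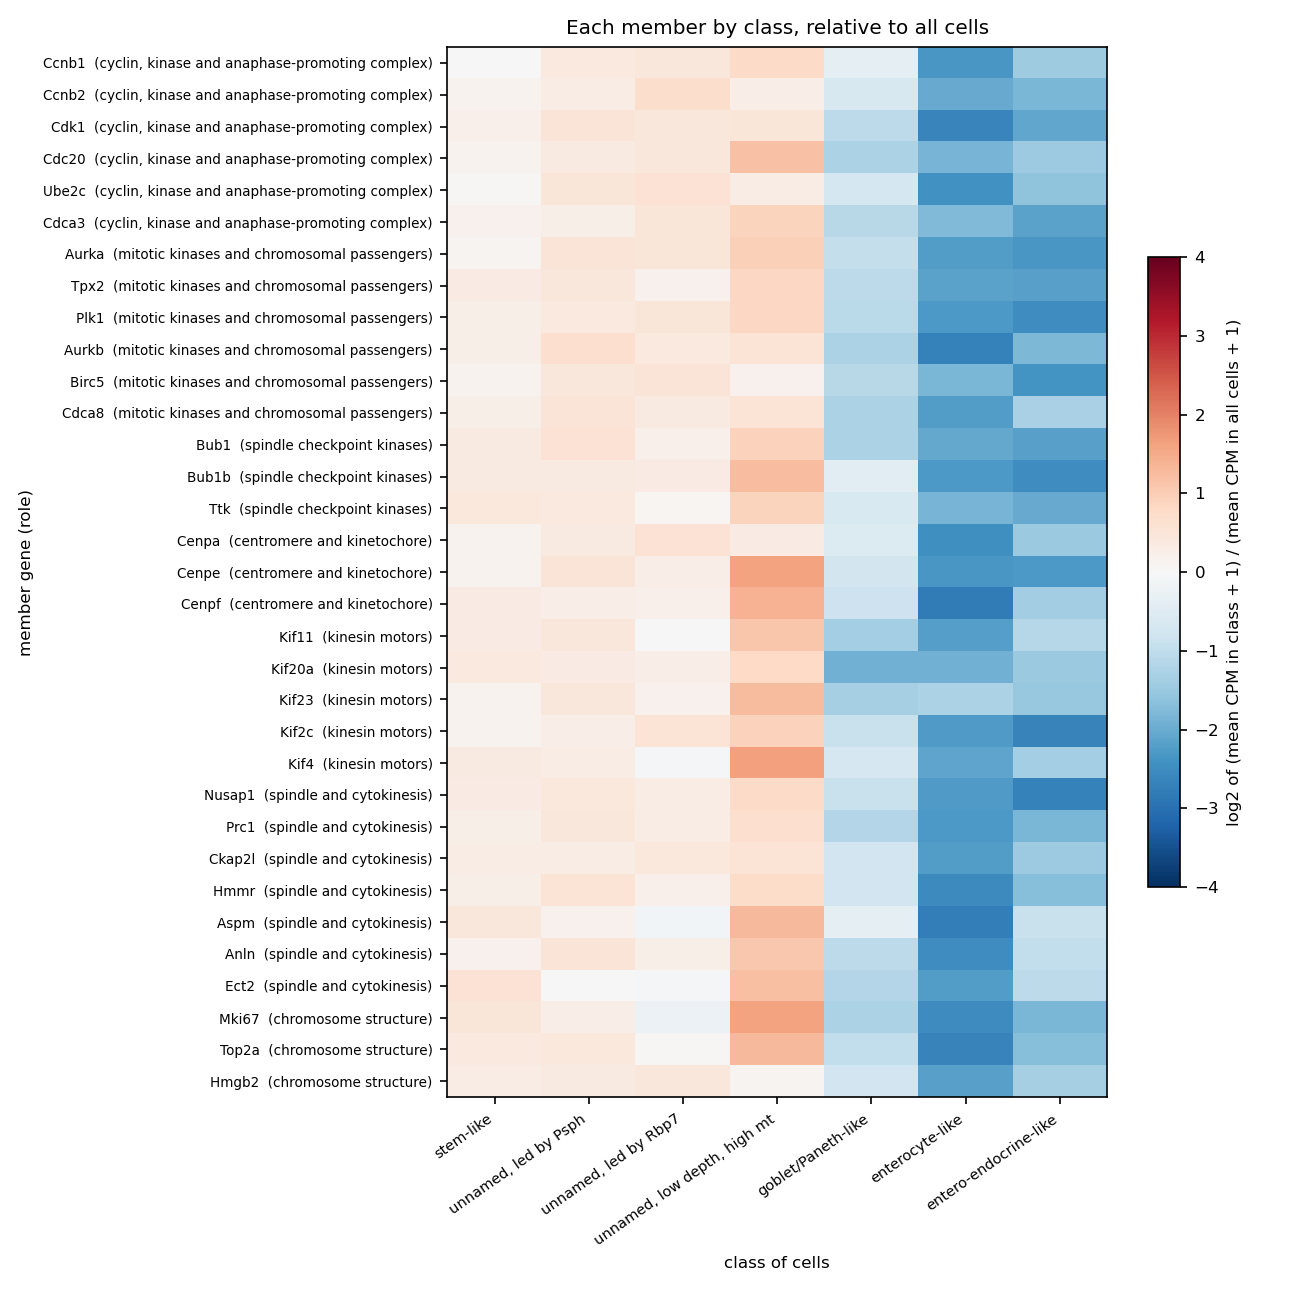
Each member (rows, with its role) in each class or cluster (columns), as log2 of mean CPM over 5 cultures plus 1, relative to the same value over all cells. Red is above all cells and blue below. The enterocyte-like and enteroendocrine-like columns are blue throughout, and the low-depth cluster is reddest for Cenpe, Kif4 and Mki67.

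A further cluster combined high member levels with low depth. Its 175 cells had a median of 5667 UMIs and 18.7% mitochondrial counts, and mitochondrial and olfactory receptor genes led it. It passed 6 of 10 stem markers, with Lgr5 at 268 CPM and Olfm4 at 2166, and stayed unnamed because of its depth and leading genes. It held 17.2% of the member-rich cells. Its summed level was 39.8 ± 10.3 UMIs per 10000, with all cultures between 25.2 and 53.1. Relative to stem-like cells, 32 of 33 members were higher in it by the mean over cultures, with a median ratio of 1.51.

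The members differed in how much higher they were in that cluster. Cenpe was at 135 CPM there and 47.6 in stem-like cells, a ratio of 2.85. Mki67 was at 338 ± 96.3 and 156 ± 50.6. Both were higher there in all 5 cultures. Ube2c was at 340 ± 177 and 286 ± 93.0, higher in 1 culture, and Hmgb2 at 760 ± 179 and 852 ± 162, also higher in 1. Across the 33 genes, the ratio was larger for members with longer exons in sum (Spearman's rho 0.49) and a longer genomic span (0.55), a description across genes of the same libraries, since genes are not replicates. Depth and mitochondrial share moved with these levels, and their part in them was not tested.

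Members varied together from cell to cell. All 528 pairs had a positive correlation of log levels across 1432 cells, with a median r of 0.48 and a range of 0.21 to 0.70. After thinning to equal depth the median was 0.28 over 1243 cells. The cells share 1 library. Equal depth, fewer counts per gene and the loss of shallow cells all came with thinning, and their parts in the lower median were not tested. Before thinning the closest pair was Ccnb2 with Cenpa (0.70), followed by Cdc20 with Cenpa (0.68). This order was not kept after thinning. These pairs then stood at 0.43 and 0.45, and the closest was Ube2c with Cenpf (0.61). The loosest pair was Ttk with Kif4, at 0.21 before and 0.017 after thinning, and Ttk had few UMIs (314). Ccnb2 with Anln was also low (0.25 before thinning), with 1850 UMIs for Ccnb2 and 494 for Anln.

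Outside the list, the 10 genes most like the summed members over the same cells had r between 0.61 and 0.66. They were Pclaf, a clamp-associated replication factor, the cyclin gene Ccna2, the histone genes Hist1h2ap, H2ax and H1f5, the tubulin genes Tubb5 and Tuba1b, the kinetochore scaffold gene Knl1, the condensin gene Smc2 and the mitotic kinase gene Pbk.

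Member-rich cells did not hold the members in fixed proportion. They were divided into 3 groups of 87, 87 and 88 cells by their share of UMIs from 49 S-phase genes, which are not members. The median share was 14.6 UMIs per 10000 in the low group and 59.5 in the high group, at median depths of 33529 and 29643 UMIs. Cenpa stood at 244 and 357 CPM in low-group cells of the controls and at 325, 331 and 249 in those of the mutants. In the high group it was 40.8 and 83.6, then 70.5, 41.5 and 183. It was higher in the low group in 5 of 5 cultures, with a ratio of means of 3.59, and the 2 ranges did not overlap.

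Cdc20 and Ccnb1 showed the same order. Cdc20 was at 241 ± 48.0 CPM in the low group and 70.3 ± 20.2 in the high group, and Ccnb1 at 156 ± 31.1 and 56.1 ± 27.3. Both were higher in the low group in 5 of 5 cultures, as were Kif2c, Aspm, Kif23 and Hmmr, a spindle assembly factor. Ccnb2 (ratio 2.48), Ube2c (2.12) and Cenpf (2.01) were higher there in 4 of 5, the exception being mutant 3, with 7 low-group and 4 high-group cells.

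Top2a and Aurkb ran the other way. Top2a was at 290 ± 73.2 CPM in the low group and 489 ± 142 in the high group, higher in the high group in 5 of 5 cultures. Aurkb was at 96.1 ± 15.8 and 124 ± 28.4, again in 5 of 5. Mki67 was at 229 ± 30.3 and 386 ± 112, in 4 of 5, with control 1 as the exception (272 against 231). Hmgb2, also of the chromosome group, had a ratio of 0.91 and was higher in the low group in 3 of 5 cultures. Cdca3, a regulator of mitotic entry, had 1.02. Cdk1, Birc5 and Prc1 had ratios of 1.03, 1.01 and 1.06, and their cultures disagreed in direction. Of the 33 members, 19 had a ratio above 1, 7 were higher in the low group in all cultures and 2 in the high group. Depth and the number of members per cell, with a median of 17 in the low and 13 in the high group, moved with these ratios, and their part was not tested.

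**Figure D4:**
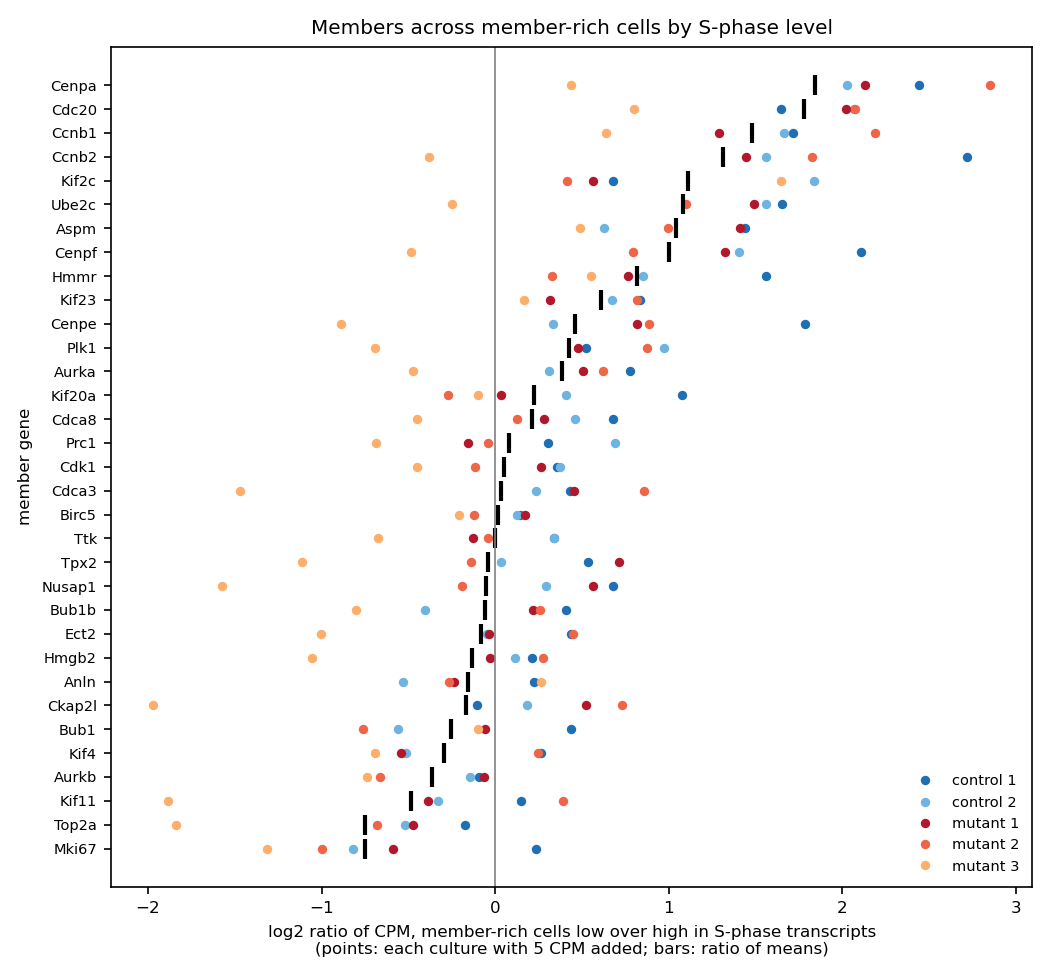
log2 ratio of CPM between member-rich cells low and high in S-phase transcripts (x axis) for each member (y axis), with points for cultures (5 CPM added to both levels) and black bars for the ratio of means. Cenpa, Cdc20 and Ccnb1 lie to the right of 0 in all 5 cultures, and Top2a and Aurkb to the left in all 5.

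Control and mutant cultures were compared over culture sums with the quasi-likelihood test of edgeR, adjusted over all genes tested. The labels call the cultures biological replicates. Across all cells, the member-rich share was 19.9% and 19.8% in the controls and 32.0%, 21.9% and 9.41% in the mutants. The mutants thus spread from above to below both controls, with means of 21.1% ± 11.3 (n = 3) and 19.8% ± 0.0409 (n = 2). Among member-rich cells the mean number of members was 15.9 and 16.4 in controls and 15.4, 15.7 and 16.1 in mutants, which overlap. In such sums, fewer dividing cells and fewer transcripts per dividing cell cannot be told apart.

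None of the 33 members passed in all cells (0 of 33, adjusted p under 0.05; 0.00904% of 11061 genes passed), and DESeq2 also passed 0. None had an unadjusted p under 0.05 (3.05% of all genes) and in none did the groups separate without overlap (17.0% of all genes). The median log2 fold change, mutant over control, was 0.05 over the members and 0.00 over all genes tested, with 20 of 33 members above zero (51.0% of all genes). Mutant 3 was the lowest of the 5 cultures for all 33 members and mutant 1 the highest for 32. Without mutant 1 the median was -0.20, and without mutant 3 it was 0.30.

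Kif2c (chr4:117159639-117182639, minus strand) had the smallest p among members with a higher mean in mutants. It stood at 8.68 and 9.999 CPM in the controls and 14.3, 12.1 and 7.87 in the mutants, so the groups overlapped, and its log2 fold change was 0.31 (SE 0.24; edgeR adjusted p = 0.9997). Bub1b (0.27), Plk1, a kinase of spindle assembly (0.25), and Cdca3 (0.19) came next on the same scale. Aspm had the smallest p on the lower side. It was at 11.7 and 17.0 CPM in controls and 17.2, 12.5 and 6.44 in mutants (log2 fold change -0.22, SE 0.34; edgeR adjusted p = 0.9997). Ect2 (-0.14), Cdca8 of the passenger complex (-0.05) and Cenpe (-0.04) followed.

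Other cell cycle lists behaved alike in all cells: 0 of 85 other mitotic genes, 0 of 49 S-phase genes, 0 of 20 transcription regulators and 0 of 15 inhibitors passed. Their median log2 fold changes were 0.05, 0.05, 0.08 and 0.10. The regulators with the smallest p were Lin52, a MuvB subunit (log2 fold change 0.77), and Mybl2, its mitotic partner (0.32). Mybl2 was at 8.13 and 8.86 CPM in controls and at 13.2, 9.02 and 9.54 in mutants. Neither passed (edgeR adjusted p = 0.9997 for both).

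In stem-like cells at the higher resolution (38 and 46 control cells, 17, 31 and 28 mutant cells), 27 members had enough counts to be tested and 0 passed (0.0149% of 6710 genes passed). DESeq2 passed 0 as well. At an unadjusted p under 0.05 there was 1 member (5.51% of all genes), and 0 separated without overlap (20.9%). Of the tested members 20 were above zero (49.6% of all genes), with a median log2 fold change of 0.31. Without mutant 2, which was highest for 28 of the 33 members, it was -0.25.

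Mki67 (chr7:135689784-135716361, minus strand, GENCODE vM21 on mm10) had the smallest p in this class. It stood at 26.5 and 54.95 CPM in the controls and at 110, 128 and 35.9 in the mutants. Mutants 1 and 2 were above both controls, and mutant 3 was between them. The log2 fold change was 1.09 (SE 0.40; edgeR adjusted p = 0.84), and with no filter on low counts the adjusted p was 0.00440. The gene was carried by 19 to 94 UMIs per culture. Ccnb1 (0.78), Tpx2, the activator of Aurka (0.80), and Cenpa (0.44) followed on the higher side. On the lower side were Top2a (-0.39), Kif23 (-0.38), Ube2c (-0.18) and Aurkb (-0.15).

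Top2a and Mki67, both chromosome proteins, thus had opposite signs within these cells. The value of Top2a (-0.39) was close in size to its SE of 0.31, and neither gene passed in the main test. In the broader stem-like class of 400 cells, all 33 members were tested and 0 passed (0.0108% of 9300 genes). There 29 were above zero (50.3% of all genes), with a median of 0.17, and the log2 fold change of Mki67 was 0.19 (SE 0.23). That of Top2a was -0.0048 (SE 0.18). The smallest p belonged to Bub1b (chr2:118598211-118641591, plus strand), at 11.2 and 14.7 CPM in controls and 29.6, 19.5 and 14.9 in mutants. It was the only member of 33 without overlap between groups, against 20.0% of all genes. Its log2 fold change was 0.71 (SE 0.28; edgeR adjusted p = 0.98).

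The cycling-like class was clustered with the members among the genes used, so its own high level of them is no result, and only cultures within it are compared. Its cells numbered 57 and 70 in controls and 81, 70 and 29 in mutants, and all 33 members were tested. Again 0 passed (0.0217% of 9210 genes), in edgeR and in DESeq2. Here 32 of 33 had a lower mean in the mutants, with Bub1b as the exception (0.13), and the median log2 fold change was -0.24, against 0.00 over all genes, of which 50.1% were above zero. At an unadjusted p under 0.05 there were 10 members, all lower (4.20% of all genes in either direction). For 14 members every mutant lay below both controls (9.44% of all genes). These are counts over genes that move together from cell to cell, as the pair correlations show.

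Cdca8 (chr4:124918465-124939311, minus strand) had the smallest p. It stood at 239 and 248 CPM in controls and at 198, 209 and 179 in mutants, without overlap, a log2 fold change of -0.32 (SE 0.09; edgeR adjusted p = 0.99). Ube2c was at 771 and 854 CPM against 742, 626 and 511, a log2 fold change of -0.38 (SE 0.12; edgeR adjusted p = 0.99), and with no filter on low counts its adjusted p was 0.00150. Hmgb2 (-0.24) and Nusap1 (-0.40) also separated without overlap. Aspm had the lowest log2 fold change, -0.55. Mutant 3 was the lowest culture for 31 members, and without it the median was -0.16.

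The make-up of this class differed between cultures. Its cells came from a cluster led by Ube2c and one led by Pclaf and Rrm2, genes of DNA replication. The Ube2c cluster held 66.7% and 74.3% of the class in controls and 81.5%, 54.3% and 62.1% in mutants, a range that spans both controls. The member-rich share of the class did not overlap, at 73.7% and 71.4% in controls and 66.7%, 62.9% and 44.8% in mutants. In the Ube2c cluster it overlapped, at 94.7% and 86.5% against 71.2%, 86.8% and 55.6%. This share counts the same genes, and its part in the lower means was not tested. Within the Ube2c cluster alone, 31 of 33 members were below zero (49.6% of all genes were above it), with a median of -0.21, 8 did not overlap between groups (18.0% of 8351 genes) and 0 passed (0.0239% of all genes). Of the 49 S-phase genes, 43 were above zero in the whole class, with a median of 0.15 and 0 passing. For 20 of them every mutant lay above both controls, as for 992 of all 9210 genes tested. Other mitotic genes had 68 of 84 below zero and a median of -0.15. Every mutant lay below both controls for 27 of these, and for 9.44% of all genes.

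**Figure D5:**
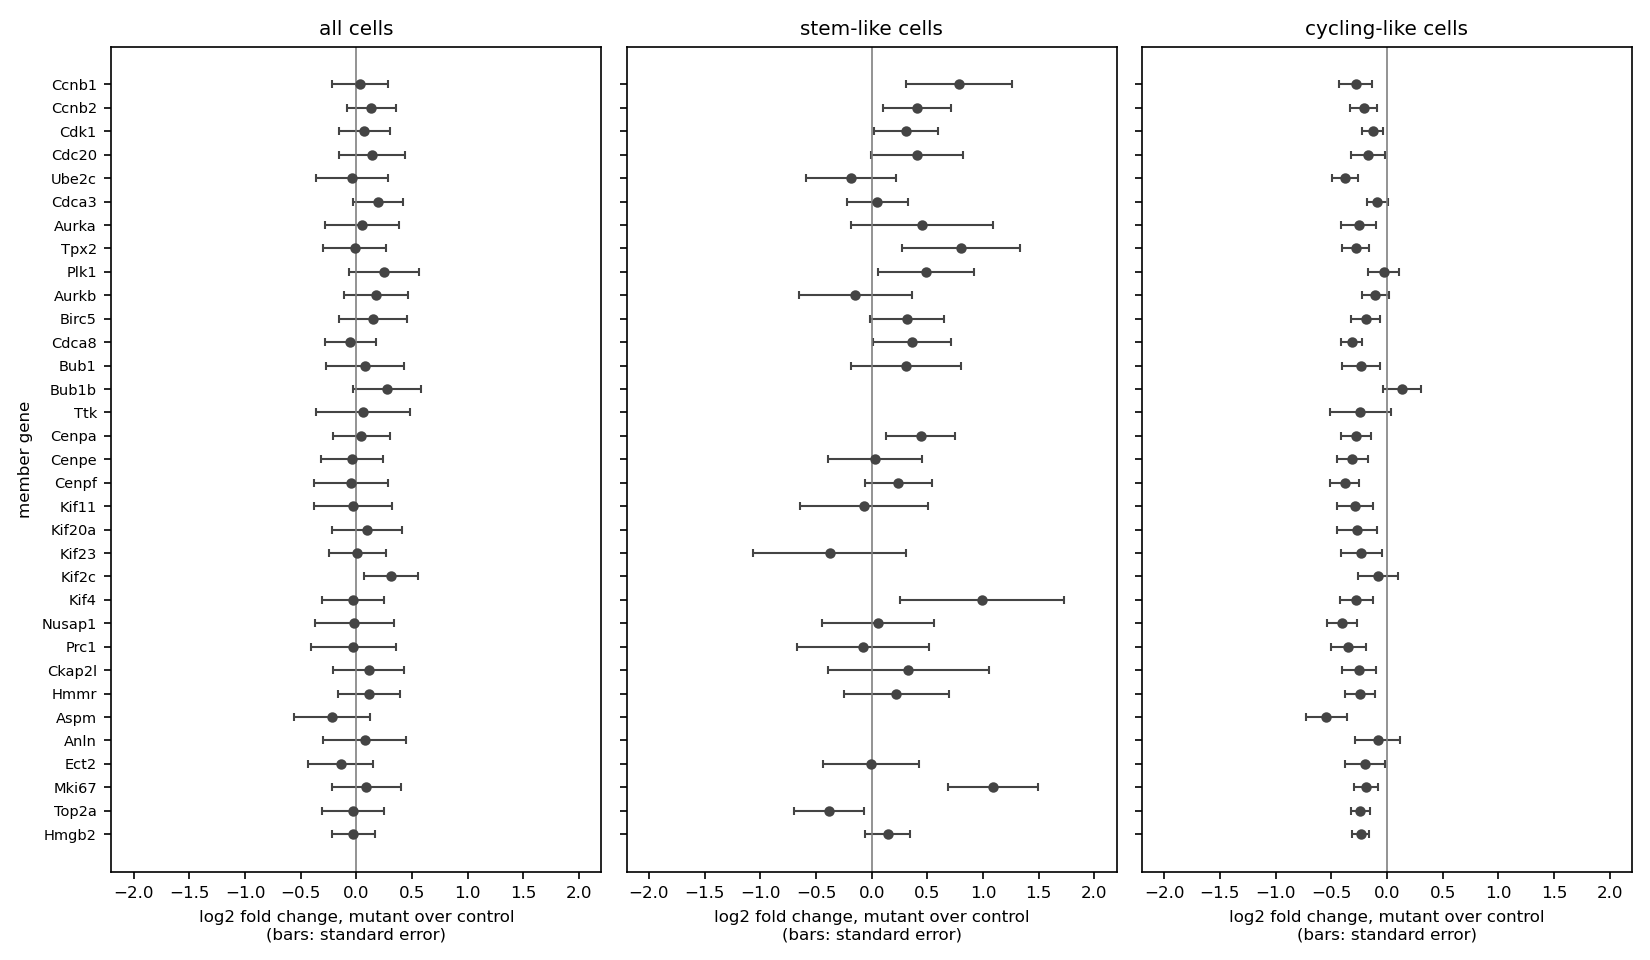
log2 fold change of each member, mutant over control, with its standard error, in all cells, stem-like cells (higher resolution; 27 members tested) and cycling-like cells. Values centre on 0 in all cells, spread widely in stem-like cells and lie below 0 for 32 of 33 members in cycling-like cells. None passed the adjusted threshold.

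Several members share their locus with another gene of the matrix: Cdc20 with Elovl1, Ube2c with Tnnc2, Cdca8 with 9930104L06Rik, Kif20a with Cdc23, Kif4 with Pdzd11, Nusap1 with Oip5 and Prc1 with Rccd1, each on the other strand. Ccnb1, Ccnb2 and Kif4 have annotated pseudogene copies. Whether counting used strand is not stated in the labels, so their levels are less certain than those of the others. Ckap2l and Kif20a, a spindle protein and a cytokinesis motor, had 84.6% and 81.2% of their UMIs in member-rich cells. Those cells were chosen in part by these same genes.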

How the data were processed

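Sorted cells of 2 control and 3 Etv1 mutant organoid cultures were tagged with hashtags, pooled and sequenced. The authors deposited a matrix of hashtag counts and a matrix of estimated counts (expected counts per gene and cell), neither normalized as far as the values show. Tools named, per the submitters' processing notes, were Seurat 4.3.0, Salmon 1.4.0, alevin and Cell Ranger 6.1.0, with the build mm10 and no role for each.

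Barcodes were assigned with HTODemux (Seurat 5.3.0, positive quantile 0.99), and 1054 filtered barcodes with no hashtag and 239 with several were left out as unassigned or doublets. The median barcode had 71 hashtag counts. No caller was run for doublets within a culture. Cells needed 500 detected genes and at most 25% mitochondrial counts. Clustering used scanpy 1.11.5 (2000 variable genes, 30 components, 15 neighbours, Leiden resolution 0.8). The class description uses resolution 0.5, chosen after seeing that at 0.8 a cluster was led by histone genes. A class was named when at least 3 fixed markers had a log2 fold of 0.5 in at least 25% of cells, unless the cluster's median depth was more than 3 times below that of its samples and none of the markers was among its 10 leading genes; a low-depth cluster with 6 of 10 stem markers and one with 6 of 11 Paneth markers stayed unnamed.

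Estimated counts were summed per culture, rounded to whole numbers and tested with edgeR 4.0.16 (TMM, filterByExpr, quasi-likelihood, Benjamini-Hochberg), with DESeq2 1.42.0 as an alternative. The edgeR procedure was tested on simulated data for sums over all cells. Sums over stem-like or cycling-like cells were not simulated. Named members are up to 4 with the smallest p in each direction and comparison, up to 2 of each other list, and the 10 genes most correlated with the summed members. Further names were picked with their values known. The members and lists were chosen with earlier results of these data known.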

Additional observations from a re-analysis of the deposited data

Results flagged for a closer look

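Barcodes that enter no comparison also carried the members. Of 202 deep barcodes with several hashtags, 50 were rich in members (24.8%, exact binomial 95% interval 19.0 to 31.3), above the 19.9% and 19.8% of the control cultures, although both controls lie inside that interval. The mutants had 32.0%, 21.9% and 9.41%, and all assigned cells together 21.1%. Their median depth was 24770 UMIs. Of 537 deep barcodes with no hashtag, 81 were rich in members (15.1%, interval 12.2 to 18.4), below both controls. Both values lie inside the range of the mutants. These barcodes belong to no culture, and what they hold was not tested.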

How the results depend on the processing

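The count of members passing was 0 in 32 of 34 alternatives. It was 1 with no filter on low counts in stem-like cells (Mki67) and in cycling-like cells (Ube2c). Genes passing numbered 6 with DESeq2, 2 with no filter and 2 with MULTIseqDemux in all cells, 19 with no filter and 3 with clustering on all variable genes in stem-like cells, and 36 with no filter and 1 at resolution 0.5 or 1.2 in cycling-like cells. With each culture left out they ran from 1 to 6 in all cells, 0 to 6 in stem-like and 0 to 7 in cycling-like cells. The members' median log2 fold change then ran from -0.20 to 0.30, from -0.25 to 0.57 and from -0.31 to -0.16.

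In all cells, leaving out control 2 or mutant 3 turned Aspm (0.0401 and 0.0393) and Ect2 (0.041 and 0.0959), and leaving out mutant 3 also turned Cdca8 (0.16) and Cenpe (0.21). With each culture left out, Aspm ran from -0.53 to 0.04, Ect2 from -0.38 to 0.10, Cdca8 from -0.24 to 0.16 and Cenpe from -0.23 to 0.21. In stem-like cells, Top2a (0.0234) and Ube2c (0.11) turned with clustering on all variable genes, and Kif23 (0.21), Ube2c (0.0777) and Aurkb (0.0503) at resolution 0.5. With each culture left out, Top2a ran from -0.80 to 0.13, Ube2c from -1.06 to 0.37, Kif23 from -0.56 to 0.19 and Aurkb from -1.23 to 0.34. The cause was not tested.

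The share of stem-like cells rich in members was 24.1%, and 1.14% with clustering on all variable genes, 9.43% at resolution 0.8, 43.8% without thinning and 40.2% at 5 members. For enterocyte-like cells it was 9.58% without thinning and 6.39% at 5 members. The median r was 0.28 in thinned cells. The stem-like test rests on 17 to 46 cells per culture, and 2 control cultures limit every comparison.

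No paired analysis was possible because the labels give the cultures hashtags and no shared replicate numbers.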
